A study of Solanum lycopersicum with 9 samples.

Results

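Abscisic acid synthesis and breakdown genes were followed in the locular tissue of young tomato fruit, the gel-forming tissue around the seeds. The 10 genes were chosen by identifier, out of 34075 in the count table: 6 of synthesis (ZEP, NCED1, NCED2, SITIENS, FLACCA and AO1) and 4 hydroxylases of the CYP707A family. All 10 have a row in the table. The zinc finger factor SlZFP2 has been reported as a repressor of this pathway, and the comparison asks how these genes stand in lines edited in it.

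The samples were line c2.11 and line c2.5, both made by CRISPR editing of SlZFP2, and the wild type (WT), with 3 libraries each. All 9 libraries are of the dwarf cultivar Micro-Tom, and fruits were taken 6 days after anthesis. Each library pooled locular tissue of 6 fruits after removal of the developing seeds. The labels give neither the edited bases nor whether pools came from different plants or days, so p-values measure the spread between pools, which may be technical. The total was 19963325 to 20727310 counts per library, and 19358 genes had enough counts to be tested. Any 2 libraries of one genotype differed by more than counting error: their chi-square statistic, divided by its degrees of freedom, was at least 4.49, and it reached 9.29 within a line and 22.5 within WT.

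Abscisic acid is made from carotenoids in plastids and finished in the cytosol. Zeaxanthin epoxidase (ZEP) makes the epoxidised xanthophylls, and the NCED dioxygenases cleave them to xanthoxin, a step that commonly limits the rate of synthesis. Aldehyde oxidases such as SITIENS carry out the closing oxidation, and they need a sulfurated molybdenum cofactor, which FLACCA supplies. CYP707A hydroxylases start the main route of breakdown. In tomato, notabilis, sitiens and flacca are the classic wilty mutants, which lack enough of the hormone to close their stomata.

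The count table gives identifiers without names. The names used here come from the list that chose the genes and from general knowledge, and they were checked against a RefSeq table of another Micro-Tom assembly (SLM_r2.1). For 7 of the 10 genes that table holds the symbol on the same chromosome and at nearly the same place in the gene order, within 2.06 percentage points of chromosome rank. These were ZEP on chromosome 2, NCED1 and FLACCA on chromosome 7, NCED2 on chromosome 8, AO1 on chromosome 11, CYP707A1 (Solyc04g078900.3) on chromosome 4 and CYP707A2 (Solyc08g005610.3) on chromosome 8. The SITIENS symbol was not found there, and neither was a symbol near 2 of the hydroxylases, which are called here by their identifiers. Symbols for CYP707A4 and NCED6, further genes of these families outside the 10, were not found on their chromosomes. Both were left out.

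The edited gene itself could not be used as a check of the labels. The row attributed to SlZFP2 (Solyc07g053570.4, chromosome 7) had 34, 49 and 30 counts in the c2.11 libraries. It had 31, 15 and 30 in the c2.5 libraries, and 21, 13 and 11 in the WT libraries. Its log2 change was 1.04 ± 0.34 in c2.11 (SE, edgeR adjusted p = 0.019), a call of higher. In c2.5 its log2 change of 0.48 ± 0.35 did not pass (edgeR adjusted p = 0.276). Of the identifiers on chromosome 7, 65.5% precede this one, whereas 7.79% of the reference's protein-coding genes on that chromosome precede ZFP2. That is a gap of 57.7 percentage points. Only the symbol was matched, and whether the reference's ZFP2 is the same gene as SlZFP2 was not tested. For Solyc04g071150.3 and Solyc08g075320.4 the symbols CYP707A1 and CYP707A2 gave gaps of 22.4 and 62.3 percentage points. Those symbols lay near other rows. Whether the row is SlZFP2 was thus not tested by the gap. Editing can also disable a gene while its RNA is made as before.

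Of the 10 genes, 7 could be tested and 6 of these differed from WT in each line, in the same direction in both. NCED2 and CYP707A1 were higher. ZEP, SITIENS, FLACCA and the hydroxylase Solyc04g071150.3 were lower, and NCED1 did not pass the test. The threshold was an adjusted p of 0.05 (edgeR quasi-likelihood test, Benjamini-Hochberg over all tested genes). Of all tested genes 54.6% passed it in c2.11 (27.3% higher and 27.3% lower) and 49.9% in c2.5 (24.9% higher and 25.1% lower). A count of 6 in 7 stands against that wide background. With the lines averaged against WT the same 6 genes passed, where 57.1% of all tested genes did. With total count scaling, which moved the median log2 change of all tested genes to 0.28 in c2.11 and 0.29 in c2.5, the split in c2.5 was 3 higher and 3 lower. The median log2 change of the 7 genes was -0.58 in c2.11 and -0.55 in c2.5, beside 0.01 over all tested genes in each. Both lines were set against the same WT libraries, so their values are given side by side. In whole tissue, fewer cells that make a transcript and less transcript per cell cannot be told apart.

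**Figure D1:**
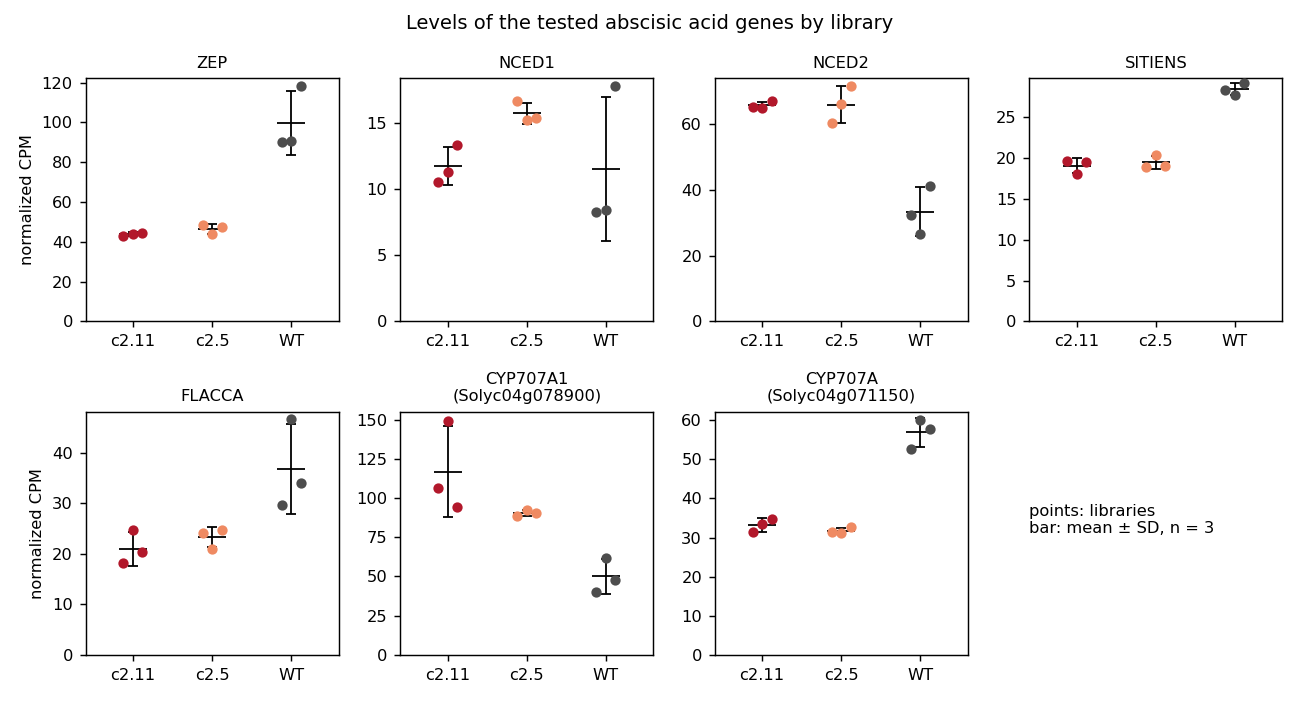
Normalized CPM of the 7 tested genes in each library (points; c2.11, c2.5 and WT from left to right) with the mean and SD of 3 libraries. NCED2 and CYP707A1 stand above WT in every line library, ZEP, SITIENS, FLACCA and Solyc04g071150.3 stand below it, and for NCED1 the groups overlap because one WT library lies at 17.8.

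ZEP, the epoxidase at the head of the pathway, had the largest fall among the synthesis genes tested. Its row, Solyc02g090890.4 on chromosome 2, had 43.0, 44.0 and 44.7 normalized CPM (CPM relative to library sizes scaled by TMM) in c2.11. It had 48.6, 43.7 and 47.3 in c2.5, against 90.3, 90.7 and 118 in WT. Every line library lay below every WT library, at about the same level in both lines. The log2 change was -1.19 ± 0.10 in c2.11 (SE, edgeR adjusted p = 1.05e-06) and -1.10 ± 0.10 in c2.5 (edgeR adjusted p = 2.02e-06). In c2.11, 12.6% of all tested genes had a larger change in either direction, and in c2.5 13.1% did. The WT libraries varied by 16.1% (SD over mean), where counting error alone would give 2.38%, and WT replicate 3 was the highest.

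The NCED genes encode the dioxygenases that cleave epoxycarotenoids, and here they differed in behaviour. NCED2 (Solyc08g016720.1, chromosome 8) had 65.3, 65.0 and 67.0 normalized CPM in c2.11 and 60.3, 66.1 and 71.6 in c2.5, against 32.5, 26.5 and 41.4 in WT. The lowest line library stood above the highest WT library, and the lines overlapped with each other. NCED2 was 1.97-fold higher in c2.11 (log2 change 0.98 ± 0.14, edgeR adjusted p = 0.00024) and 1.97-fold higher in c2.5 (0.98 ± 0.14, edgeR adjusted p = 0.000255). Over the 16 alternative settings its adjusted p stayed at or below 0.00247 in c2.5 and 0.00235 in c2.11.

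NCED1 (Solyc07g056570.1, chromosome 7), the gene of the notabilis mutant and the NCED best known from ripening fruit and wilting leaves, had 10.6, 11.3 and 13.3 normalized CPM in c2.11. It had 16.6, 15.2 and 15.4 in c2.5, against 8.26, 8.46 and 17.8 in WT. WT replicate 3 was higher than every line library, whereas WT replicates 1 and 2 were below them all. The log2 change was 0.03 ± 0.29 in c2.11 (edgeR adjusted p = 0.933) and 0.46 ± 0.28 in c2.5 (edgeR adjusted p = 0.218). In the main setting that one library decides the call, and in c2.5 NCED1 also passed with total count scaling (0.75, edgeR adjusted p = 0.0366). Without WT replicate 3, NCED1 was higher in c2.11 by 0.49 (edgeR adjusted p = 0.00418) and in c2.5 by 0.91 (edgeR adjusted p = 4.73e-05). The WT libraries differed by 47.4% (SD over mean) for NCED1 where counting error would give 7.02%, and WT replicate 3 was also the highest WT library for NCED2 and ZEP. What sets that library apart was not tested.

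The 2 NCED transcripts were also compared within each library, a ratio that needs no scaling between libraries. It was chosen after the values were seen and is given as a description. NCED2 counts over NCED1 counts were 6.19, 5.74 and 5.02 in c2.11, 3.62, 4.35 and 4.65 in c2.5, and 3.93, 3.13 and 2.32 in WT. The c2.11 ratios lay above all others, and c2.5 overlapped with WT. Gene length is not taken into account, so only the change of the ratio between genotypes can be read. Before scaling, the 2 genes together had 1631 to 1721 counts in c2.11 and 1659 to 1888 in c2.5, against 616 to 1020 in WT.

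SITIENS and FLACCA, which act together in the closing oxidation, were both lower. SITIENS (Solyc01g009230.4, chromosome 1) had 19.7, 18.1 and 19.6 normalized CPM in c2.11 and 19.0, 20.5 and 19.0 in c2.5, against 28.4, 27.8 and 29.2 in WT. The groups of line and WT libraries were far apart for so small a change, and the spread in each genotype was no larger than counting error gives (2.58% in WT, beside 4.45%). Its log2 change was -0.58 ± 0.07 in c2.11 (edgeR adjusted p = 9.95e-06) and -0.55 ± 0.07 in c2.5 (edgeR adjusted p = 1.70e-05). With total count scaling it was smaller, at -0.30 in c2.11 (edgeR adjusted p = 0.00167) and -0.26 in c2.5 (edgeR adjusted p = 0.00412), and still passed.

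FLACCA (Solyc07g066480.3, chromosome 7), the molybdenum cofactor sulfurase, was more variable. It had 18.1, 24.7 and 20.3 normalized CPM in c2.11 and 24.2, 21.0 and 24.8 in c2.5, against 29.7, 46.7 and 34.1 in WT. All line libraries lay below the lowest WT library, WT replicate 1. The log2 change was -0.81 ± 0.18 in c2.11 (edgeR adjusted p = 0.0047) and -0.66 ± 0.18 in c2.5 (edgeR adjusted p = 0.0137). With total count scaling the c2.5 difference was -0.37 and did not pass (edgeR adjusted p = 0.0747), while that in c2.11 was -0.53 and passed (edgeR adjusted p = 0.0194).

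The row listed as AO1, another aldehyde oxidase (Solyc11g071600.2, chromosome 11), was hardly read. It had 1, 0 and 0 counts in c2.11 and 0 in each c2.5 library, against 2, 1 and 1 in WT. Summed, that is 1 count in the 6 line libraries (0.00825 CPM before scaling, exact Poisson 95% interval 0.000209 to 0.0460) and 4 in the 3 WT libraries (0.0661 CPM, interval 0.0180 to 0.169). These intervals overlap and cover counting error only.

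AO1 lies in a run of aldehyde oxidase genes, so more than one row could be its own. On chromosome 11 the reference table holds 3 aldehyde oxidase symbols, TAO5, TAO3 and AO1, within a run of 4 genes. From the count table, 4 rows at and around the listed identifier were picked by their identifiers. The sources used here do not say which row is which gene, or whether each is an aldehyde oxidase. Near-identical copies can share reads. Among these rows, looked at after the listed one was found to be nearly empty, Solyc11g071620.3 was the one with most counts. It had 82, 84 and 57 counts in c2.11 and 156, 149 and 200 in c2.5, against 33, 26 and 38 in WT. The 3 genotypes did not overlap. It was higher in c2.11 by 0.91 ± 0.21 on the log2 scale (edgeR adjusted p = 0.00249) and in c2.5 by 2.10 ± 0.20 (edgeR adjusted p = 2.34e-06), and the lines differed from each other. Its neighbour Solyc11g071610.2 had 7 to 18 counts in c2.11 and 10 to 11 in c2.5, against 9 to 20 in WT, and passed in neither line (edgeR adjusted p = 0.316 in c2.11 and 0.199 in c2.5).

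**Figure D2:**
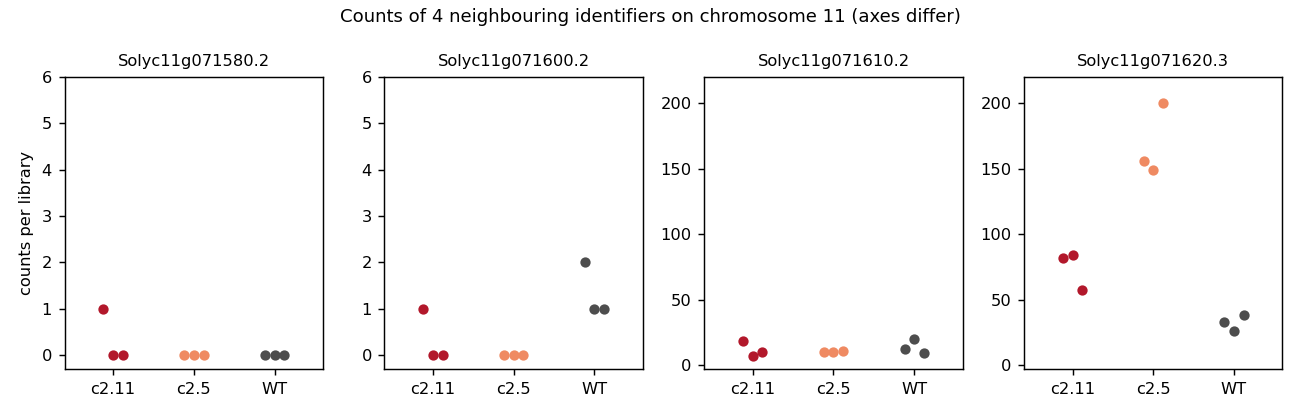
Counts per library of the 4 neighbouring rows on chromosome 11 (points are libraries; c2.11, c2.5 and WT from left to right; the vertical axes differ). Solyc11g071600.2, the row listed as AO1, has at most 2 counts, whereas Solyc11g071620.3 has 57 to 84 in c2.11, 149 to 200 in c2.5 and 26 to 38 in WT.

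On the breakdown side the 2 hydroxylases with enough counts moved in opposite directions. CYP707A1 had 106, 149 and 94.5 normalized CPM in c2.11 and 88.7, 92.3 and 90.2 in c2.5, against 40.4, 61.9 and 47.7 in WT. Every line library was above every WT library, and c2.11 replicate 2 was the highest of all. CYP707A1 was 2.33-fold higher in c2.11 (log2 change 1.22 ± 0.21, edgeR adjusted p = 0.00176) and 1.81-fold higher in c2.5 (0.86 ± 0.21, edgeR adjusted p = 0.011). Over the 16 alternatives the adjusted p in c2.5 ran up to 0.0493, just inside the threshold, and in c2.11 up to 0.0123.

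Solyc04g071150.3, also on chromosome 4, had 31.4, 33.6 and 34.8 normalized CPM in c2.11 and 31.4, 31.1 and 32.7 in c2.5, against 52.7, 60.1 and 57.8 in WT. The line libraries were close to each other and all below WT. Its log2 change was -0.77 ± 0.06 in c2.11 (edgeR adjusted p = 6.59e-07) and -0.84 ± 0.06 in c2.5 (edgeR adjusted p = 3.62e-07), and it passed in all alternatives run. The smallest changes were those with total count scaling, -0.50 in c2.11 and -0.56 in c2.5.

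CYP707A1 made up a larger share of the counts of the 4 chosen hydroxylases in every line library than in any WT library. CYP707A4 was left out, so these counts are not the family's total. Of the counts of all 4 hydroxylases, CYP707A1 gave 77.1%, 81.6% and 73.1% in c2.11 and 73.8%, 74.7% and 73.2% in c2.5, against 43.4%, 50.7% and 45.2% in WT. The ratio of CYP707A1 to Solyc04g071150.3 counts was 3.38, 4.45 and 2.72 in c2.11 and 2.82, 2.97 and 2.76 in c2.5, against 0.766, 1.03 and 0.825 in WT. No line library came near a WT library on this ratio, which scaling between libraries cannot move. It is a description, chosen after the values were seen. Before scaling, the 4 hydroxylases together had 2772 to 3994 counts in c2.11 and 2592 to 2671 in c2.5, against 1713 to 2149 in WT. TMM scaling narrows this gap, with factors of 0.857 to 0.911 in WT and at least 1.05 in the lines. In normalized CPM the sums of c2.5 and WT overlap. CYP707A1 and Solyc04g071150.3 had 61.9 and 60.1 in WT replicate 2, against 88.7 and 31.4 in c2.5 replicate 1.

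**Figure D3:**
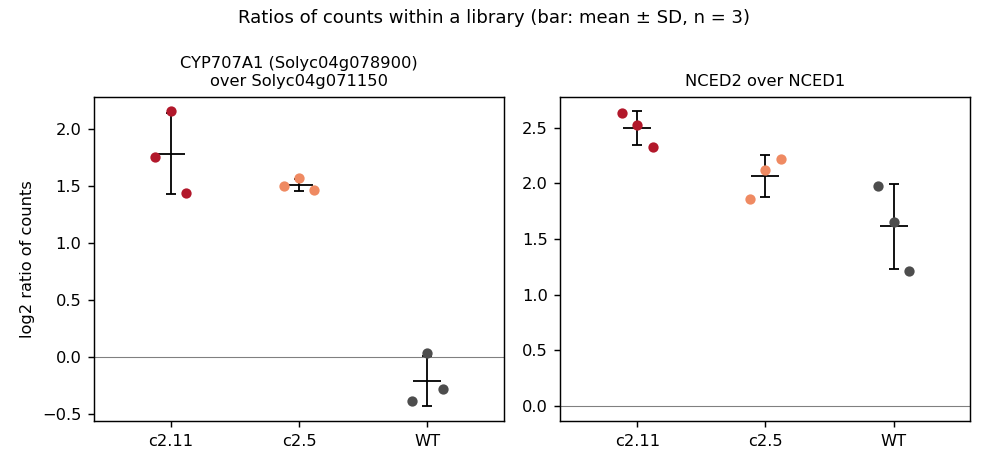
Log2 ratio of the counts of 2 genes in the same library (points; c2.11, c2.5 and WT from left to right) with mean and SD of 3 libraries. CYP707A1 over Solyc04g071150.3 is 2.72 or more in every line library and 1.03 or less in WT as a linear ratio, while NCED2 over NCED1 overlaps between c2.5 and WT.

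The other 2 hydroxylases were nearly silent. CYP707A2 had 2, 3 and 1 counts in c2.11 and 2, 3 and 6 in c2.5, against 0 in each WT library. Every line library thus held at least 1 count, 17 in all. The 0 in WT allows up to 3 counts in the 3 WT libraries, or 0.0495 CPM before scaling. Over that floor the summed level of the 6 line libraries, also before scaling, was 2.83-fold higher. That figure leaves out the counting error of the 17 counts and the TMM scaling, which lowers the lines relative to WT. With counting error, the exact Poisson 95% interval before scaling was 0.0817 to 0.225 CPM in the summed lines. By line it was 0.0361 to 0.214 in c2.11 and 0.0911 to 0.327 in c2.5. Its upper limit in WT was 0.0609, which overlaps the interval of c2.11 and not that of c2.5. CYP707A2 did not enter the main test. In a fit without a low-count filter it passed in c2.5 (edgeR adjusted p = 0.0145) and not in c2.11 (edgeR adjusted p = 0.0551). Solyc08g075320.4, on chromosome 8, had 3 counts in the 6 line libraries and 2 in the 3 WT libraries, too few for a comparison.

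**Figure D4:**
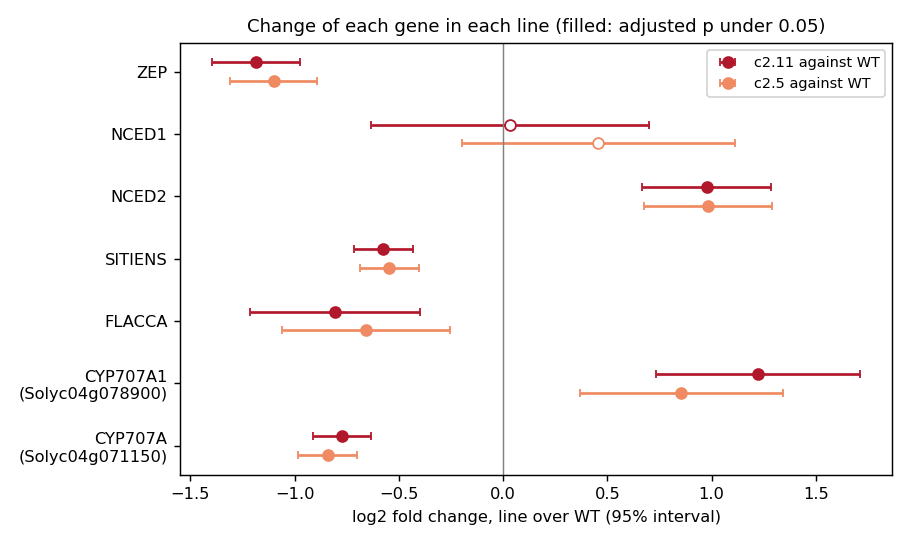
Log2 fold change of each tested gene in c2.11 (upper marker) and c2.5 (lower marker) over WT, with 95% intervals from the edgeR fit; filled markers passed an adjusted p of 0.05. NCED2 and CYP707A1 lie above 0, ZEP, SITIENS, FLACCA and Solyc04g071150.3 below it, and both NCED1 intervals include 0.

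The lines were also compared with each other. None of the 7 tested genes passed (edgeR, with 0 at an unadjusted p under 0.05 and 0 with DESeq2), where 1.29% of all tested genes did. The intervals show how large a difference could remain. For c2.11 over c2.5 the log2 difference was 0.37 (95% interval -0.11 to 0.84) for CYP707A1 and -0.42 (-1.07 to 0.22) for NCED1. It was -0.08 (-0.29 to 0.13) for ZEP, -0.01 (-0.30 to 0.29) for NCED2 and -0.03 (-0.17 to 0.11) for SITIENS. FLACCA differed by -0.15 (-0.56 to 0.26) and Solyc04g071150.3 by 0.07 (-0.07 to 0.21). NCED1 was 11.7 ± 1.44 normalized CPM in c2.11 and 15.8 ± 0.783 in c2.5 (SD, n = 3 libraries each), and all c2.11 libraries were below all c2.5 libraries. With WT left out of the fit that difference passed (-0.42, edgeR adjusted p = 0.0304).

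The carotenoid genes, most of them on the route to the substrates of ZEP and the NCEDs, were examined as a wider list of 12, and a symbol or synonym of each was found on the matching chromosome of the reference table. In c2.11, 2 were higher, 7 lower and 3 not called. In c2.5, 2 were higher, 6 lower and 4 not called. PSY1, PDS, ZDS, CRTISO, VDE and LCY-E were lower in both lines. CRTR-B1 and CYC-B were higher in both, and PSY2, Z-ISO and LCY-B were called in neither. Over all tested genes 27.3% were higher and 27.3% lower in c2.11, and 24.9% were higher and 25.1% lower in c2.5. Scaled by total counts, each line had 4 higher and 5 lower. The median log2 change of the list was -0.44 in c2.11 and -0.40 in c2.5, beside 0.01 over all tested genes.

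CRTR-B1, a beta-carotene hydroxylase that makes zeaxanthin, the substrate of ZEP, was the list's largest change. It had 37.6 to 41.8 normalized CPM in c2.11 and 37.9 to 42.3 in c2.5, against 12.7 to 17.0 in WT. The log2 change was 1.45 ± 0.10 in c2.11 (edgeR adjusted p = 1.23e-07) and 1.49 ± 0.10 in c2.5 (edgeR adjusted p = 1.05e-07), so this gene rose while ZEP fell. LCY-E, the cyclase that directs lycopene to the lutein branch, had 31.6 to 32.8 normalized CPM in c2.11 and 32.8 to 36.8 in c2.5, against 59.9 to 74.7 in WT. It was lower by a log2 change of -1.11 ± 0.08 in c2.11 (edgeR adjusted p = 2.14e-07) and -0.998 ± 0.08 in c2.5 (edgeR adjusted p = 5.62e-07).

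CYC-B, the cyclase best known from chromoplasts, had a log2 change of 0.50 ± 0.16 in c2.11 (edgeR adjusted p = 0.0183) and 0.54 ± 0.16 in c2.5 (edgeR adjusted p = 0.0124). Removing c2.11 replicate 1, or either of WT replicates 2 and 3, ended the call in c2.11 (highest edgeR adjusted p = 0.0738). Removing c2.5 replicate 3 or WT replicate 2 ended that in c2.5 (highest edgeR adjusted p = 0.0533). In each of these fits 1 gene of the list was left as higher. With total count scaling CYC-B was higher by 0.77 in c2.11 and 0.82 in c2.5. CRTR-B2, the hydroxylase of flowers, had 7 to 14 counts in the c2.11 libraries and 9 to 15 in c2.5, against 14 to 16 in WT. It passed in c2.11 (log2 change -0.96 ± 0.36, edgeR adjusted p = 0.039), a call that ended in 11 of the 15 alternatives that tested it. In c2.5 its log2 change of -0.63 ± 0.35 did not pass (edgeR adjusted p = 0.152), nor did it in any of 15 alternatives.

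**Figure D5:**
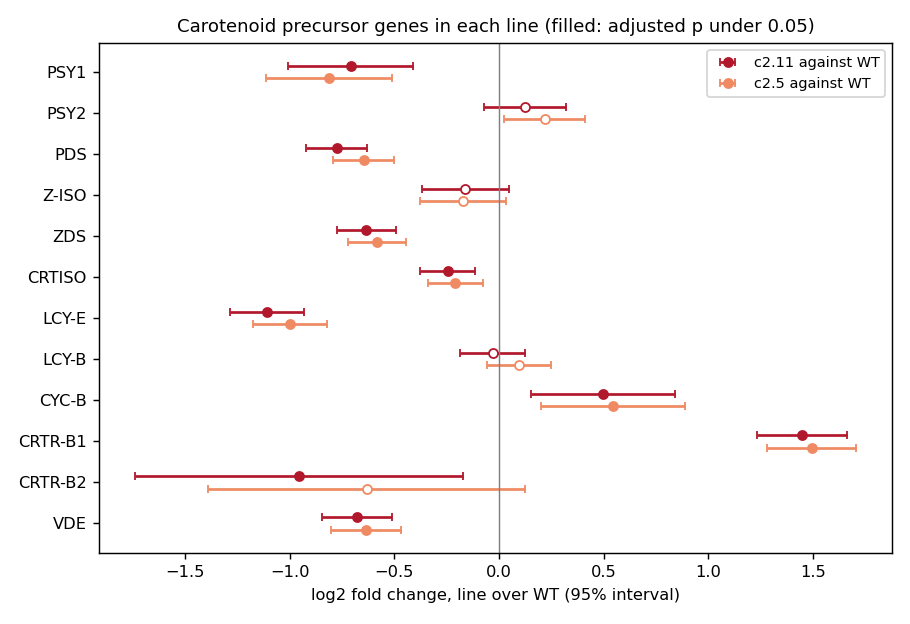
Log2 fold change of the 12 carotenoid genes in c2.11 (upper marker) and c2.5 (lower marker) over WT, with 95% intervals; filled markers passed an adjusted p of 0.05. CRTR-B1 stands alone at about 1.45 and 1.49, and LCY-E is the lowest of the well-counted genes at -1.11 and -0.998.

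Genes listed as markers of the tissue were read in all libraries. Whether they are confined to it was not checked, and no marker of the fruit wall was listed. The D-class MADS-box gene MBP3, which is needed for locular tissue, had 382 to 395 normalized CPM in c2.11, 369 to 382 in c2.5 and 320 to 377 in WT, and did not pass in either line, though it did in both without WT replicate 2 and with total count scaling. Its relative TAGL11 was higher in c2.11 by 0.22 (edgeR adjusted p = 0.0116) and in c2.5 by 0.24 (edgeR adjusted p = 0.00757), and that c2.11 call ended without c2.11 replicate 2 (edgeR adjusted p = 0.0624). TAGL1 was higher by 0.48 in c2.11 (edgeR adjusted p = 5.03e-05) and by 0.41 in c2.5 (edgeR adjusted p = 0.000203). With total count scaling TAGL11 was higher by 0.49 in c2.11 and 0.52 in c2.5, and TAGL1 by 0.75 in c2.11 and 0.69 in c2.5. TAG1 was higher by 0.56 in c2.11 (edgeR adjusted p = 0.00579), and its difference of 0.22 in c2.5 did not pass (edgeR adjusted p = 0.197), though it did without WT replicate 1 and with total count scaling. ABI3, a seed regulator, was at 0 counts in all 9 libraries. FUS3, also listed for seed, was left out because its symbol was not found on its chromosome in the reference. What part tissue composition has in the changes above was not tested.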

How the data were processed

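Stranded mRNA libraries were read as paired ends, per the labels' protocols. The authors deposited raw counts per gene, one column per library; per the submitters' processing notes the tools included FastQC and featureCounts, with no versions. The sources used here do not give the aligner, genome build, gene models or strand setting. Reads of genes that overlap or are near copies may therefore be shared, and coordinates are left out.

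Counts of all 34075 genes were tested with edgeR 4.0.16 (R 4.3.3): filterByExpr, TMM, robust glmQLFit and glmQLFTest over all 9 libraries, with Benjamini-Hochberg adjustment over 19358 genes. A standard error is the log2 change over the square root of F, and 95% intervals use the fit's t quantile. Normalized CPM are CPM relative to TMM-scaled library sizes. The procedure was tested on simulated data in which far fewer genes changed than were called here, so that test does not cover so wide a change. Same-numbered libraries were checked for pairing and share only a number. The genes and lists were chosen with earlier results of these data known; all 10 are described, with the 2 largest changes either way of the carotenoid list, ranked with the lines averaged. Poisson intervals and floors cover counting error only, whereas the fit's intervals include the spread between libraries. Alternatives were DESeq2 1.42.0, 2 other scalings, 2 other filters, fits on the compared genotypes, a replicate block and removal of each library. The same alternatives on the carotenoid list, markers and Solyc11g071620.3 were chosen after seeing the data. No sequences are shown.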

Additional observations from a re-analysis of the deposited data

Results flagged for a closer look

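The row Solyc11g071620.3, next but one to the row listed as AO1 on chromosome 11 and not matched to a named gene here, differed between the lines by the test of the difference itself. It had 3.81, 3.85 and 2.66 normalized CPM in c2.11, against 7.23, 7.04 and 9.22 in c2.5, a log2 change of -1.18 ± 0.18 (SE, edgeR adjusted p = 0.00726; lower in 3 of 3 c2.11 libraries). Over the 16 alternatives the adjusted p ran from 3.64e-05 to 0.0553, and the call ended without c2.5 replicate 3 (-1.05).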

How the results depend on the processing

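In c2.11 and c2.5 against WT 6 genes were called in the main setting, and 6 or 7 in every alternative, with or without single libraries. With total count scaling the 6 in c2.5 held NCED1 and not FLACCA, where 12849 of 19358 tested genes passed. The 7 in c2.5 without a low-count filter, where all 10 genes were tested, included CYP707A2. The replicate block gave 6 in each line, changed no call of the 7 tested genes, and gave 0 between the lines. Correlations of same-numbered libraries ran from -0.27 to 0.23, and of others from -0.26 to 0.35. Between the lines 0 genes were called except in the fit without WT, where 1 was (NCED1). NCED1 in c2.11 against WT reversed without c2.11 replicate 3 (-0.07), WT replicate 1 (-0.16) and WT replicate 2 (-0.14), with a range of -0.16 to 0.49 over single removals. It passed in c2.5 with total count scaling (0.75, edgeR adjusted p = 0.0366). Near-zero differences between the lines reversed on removal of c2.11 replicate 2 for NCED2 (0.00354) and SITIENS (0.0106), of c2.5 replicate 3 for NCED2 (0.0570) and of c2.5 replicate 2 for SITIENS (0.00684). Single removals gave -0.0672 to 0.0570 for NCED2 and -0.0508 to 0.0106 for SITIENS. The cause was not tested. The number of carotenoid genes called in either direction stayed within 1.5 times, but those called higher, 2 in each line, ran from 1 to 4. The 3 genes under 10 counts per library did not enter the main test, and depth limits what can be said of them.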
